A study of Mus musculus with 18 samples.

Results

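Between 24h and 7d of osteogenic differentiation, Apod rose 17.2-fold and Cst6 fell 5.12-fold in MC3T3-E1 cells, and 163 of the 477 genes that could be tested changed. The comparison set the 6 libraries titled 7d against the 6 titled 24h, 12 of the 18 libraries in the series, and the 6 libraries titled 0h were not used. Each 7d library was paired with the 24h library of the same construct and sample number. MC3T3-E1 is a mouse preosteoblast line, and every library in the comparison came from cells that carried a lentiviral short hairpin. The shScramble groups carried a control hairpin and are labelled WT, and the shRcor2-18 and shRcor2-20 groups carried hairpins against Rcor2 and are labelled as Rcor2 knockdown. Each of the 3 constructs had 2 samples at each time. Osteogenic medium is described as growth medium with 10 nM dexamethasone, 50 µg/ml ascorbic acid and 5 mM beta-glycerophosphate. The protocols name differentiation for 24 hours, 14 days and 21 days but not 7 days, so that the times are those of the sample titles. Whether the 2 samples of a group came from separate cultures is not stated in the labels, so that the spread behind each p-value may be technical.

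Preosteoblasts placed in medium with ascorbic acid and a phosphate donor stop dividing, lay down a collagen-rich matrix and later mineralise it. Ascorbic acid is a cofactor of the hydroxylases that modify collagen, beta-glycerophosphate supplies phosphate for mineral, and dexamethasone is a ligand of the glucocorticoid receptor. In this line, the first week after induction is known as the time when proliferation gives way to matrix production. Rcor2 belongs to the CoREST family of corepressors, which join histone deacetylase and demethylase activities on chromatin.

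The genes described lie in 2 stretches, Mefv to Cbr3 on chromosome 16 and Ighmbp2 to Gpha2 on chromosome 19. They were used because row names elsewhere in the table were judged in earlier work not to match the reads. The rows named Gapdh and Vim, which cultured fibroblast-like cells express abundantly, held 0 to 2 and 0 to 5 counts in the 12 libraries. The stretches hold 744 protein-coding genes, 610 of the 646 on chromosome 16 and 134 of the 699 on chromosome 19. Of these, 477 passed the filter on low counts and were tested, 267 did not pass it, and 128 of the latter had no count in any of the 12 libraries. The submitters' processing notes name the mouse build mm9, while the identifiers of these genes match GENCODE vM21, an annotation of the later build GRCm38, and no source used here gives the gene models that were counted. A row may therefore hold part of a gene's reads or reads of a neighbour, also within the stretches, and whether it did was not tested. Defining osteoblast genes such as Runx2, Sp7, Alpl, Bglap, Ibsp and Col1a1 lie outside the stretches, so that the labelled cell type could be checked only on 8 stromal genes inside them. All 8 passed the filter, and their summed level was 46091 to 51325 CPM at 24h and 42142 to 60937 CPM at 7d. Among markers of other cells in the stretches, 4 of 11 leukocyte, 3 of 9 epithelial and 3 of 5 skeletal muscle genes passed too. So did 2 of 4 endothelial, 1 of 8 neural and 0 of 1 adipocyte genes. Passing the filter alone therefore does not settle the cell type. CPM here are relative to the summed counts on the tested genes, after scaling.

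The 12 libraries held 3504808 to 6139315 counts in all and 416472 to 729687 on the stretches. The total did not differ between the times beyond the spread of the pairs, with a ratio of 7d to 24h of 0.895 and an exact two-sided sign-flip permutation p of 0.5. The share of counts on the stretches was 11.67% to 12.13% at 24h and 11.29% to 11.92% at 7d and was lower at 7d in 6 of 6 pairs, with an exact sign-flip permutation p of 0.03125, the smallest that 6 pairs can give. The row of the silenced gene, Rcor2, lies outside the stretches and checks no label. It held 208.8 to 242.2 CPM of all counts at 24h and 200.7 to 223 at 7d, over all 3 constructs, and was lower at 7d in 6 of 6 pairs (ratio 0.949, exact two-sided sign-flip permutation p = 0.03125). Libraries stood apart in a way that the constructs did not describe. At both times the nearest library of shScramble sample 1 was shRcor2-18 sample 1, that of shScramble sample 2 was shRcor2-20 sample 1, and that of shRcor2-18 sample 2 was shRcor2-20 sample 2. The counts of these neighbours differed with a chi-square of 3.09 to 7.22 per degree of freedom, against 14.1 to 36.5 between the samples of 1 construct. They are called the 3 couples below. If each couple shares a source, the 6 pairs count for fewer than 6. A fit on the summed counts of each couple is therefore given where it changes a call.

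With the 6 pairs as a block, 84 of the 477 genes (17.6%) rose and 79 (16.6%) fell from 24h to 7d, which is 34.2% called, by edgeR's quasi-likelihood test with a Benjamini-Hochberg threshold of 0.05. Most changes were small. The median fold was 1.35 among the genes that rose and 1.26 among those that fell, 10 and 6 genes respectively passed 2-fold, and the median log2 change of all tested genes was 0.013. Of the genes called, 72 rose in all 6 pairs and 63 fell in all 6. The libraries of the 2 times did not overlap for 33 of the genes that rose (6.92% of all tested) and 24 of those that fell (5.03%), 57 (11.9%) in all. Without the pairing, 83 genes passed (45 rose, 9.43%, and 38 fell, 7.97%), each of them also called with it. With the couples summed, 87 of 485 tested passed (47 rose, 9.69%, and 40 fell, 8.25%), of which 86 were shared. Gene list counts below come from the fit with the pairs as a block unless another fit is named. They are to be set against 17.6% rises, 16.6% falls and a median of 0.013 over all tested genes. Counts from another fit are to be set against the shares called in that fit. In the fit over all rows, which tested 11724 rows together, 56 of the 477 genes rose and 36 fell. The plot of change against mean level sets the genes called with the pairs as a block beside those not called.

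**Figure D1:**
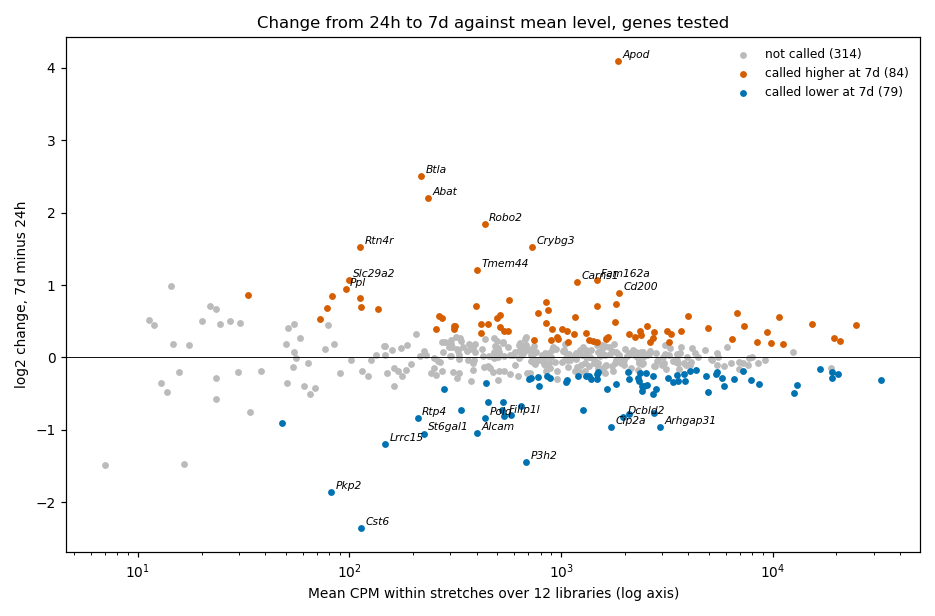
Log2 change from 24h to 7d (vertical axis) against the mean CPM over the 12 libraries (horizontal log axis) for the 477 genes tested, with 84 called higher in orange, 79 called lower in blue and the rest in grey. Apod, at a log2 change of 4.1, lies far above the other genes, and Cst6, at -2.36, is the lowest of the genes called.

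The count of rises and falls is given for each stretch. On chromosome 16, 30.9% of the tested genes were called and on chromosome 19, 44.7%. On chromosome 16, 69 of 363 tested genes rose (19%) and 43 fell (11.8%), with a median log2 change of 0.036, while on chromosome 19, 15 of 114 rose (13.2%) and 36 fell (31.6%), with a median of -0.07. Scaled alone, chromosome 16 gave 62 rises and 61 falls, and chromosome 19 gave 16 and 25.

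Apod and Abat led the metabolic and lipid genes. Apod (ENSMUSG00000022548) encodes apolipoprotein D, a secreted lipocalin that binds small lipophilic molecules. Its level was 83.4, 180 and 323 CPM (lowest, median and highest) in the 24h libraries and 1122, 3554 and 6074 CPM in the 7d libraries. Every 7d library lay above every 24h library. The log2 change was 4.1 ± 0.3 (SE, 6 pairs; edgeR adjusted p = 0.000109). It ranged over the pairs from 3.38 in shRcor2-18 sample 2 to 5.31 in shScramble sample 2, and the couple of shScramble sample 2 and shRcor2-20 sample 1 held the highest 7d levels, 6074 and 5563 CPM. Abat (ENSMUSG00000057880) encodes the mitochondrial transaminase that breaks down the amino acid GABA. Its 24h libraries held 44.8, 96.5 and 114 CPM and its 7d libraries 308, 376 and 459 CPM, with no overlap. The log2 change was 2.2 ± 0.17 (edgeR adjusted p = 8.54e-08), and the 2 libraries lowest at 24h were those of shRcor2-18 sample 2 and shRcor2-20 sample 2, with 44.8 and 53.4 CPM.

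Other genes of lipid, amino acid and nucleoside handling changed in both directions. Among 8 tested lipid and sterol genes, Apod and Hacd2 rose and Tm7sf2, Osbpl11 and Pitpnm1 fell, with a list median of -0.06. With the couples summed, 2 rose and 1 fell. Hacd2, a dehydratase of very long chain fatty acid synthesis, moved from 1240 to 1487 CPM at 24h to 1818 to 2818 CPM at 7d (log2 change 0.74 ± 0.077, edgeR adjusted p = 2.47e-06). Tm7sf2, a sterol reductase of cholesterol synthesis, moved from 579 to 1017 CPM to 332 to 518 CPM (log2 change -0.8 ± 0.14, edgeR adjusted p = 0.000513). Neither gene's libraries overlapped between the times. Vps51 overlaps Tm7sf2, and no source used here gives the counting's use of strand, so that reads of the 2 genes may not be told apart. Of 9 tested genes of fatty acid and amino acid catabolism, Abat and Aldh3b1 rose and Pcx, the pyruvate carboxylase, fell, with a median of 0.23. Without the pairing Pcx was not called. Carns1 encodes carnosine synthase, which joins beta-alanine and histidine. It held 546, 806 and 965 CPM at 24h and 986, 1690 and 2103 CPM at 7d, without overlap (log2 change 1.04 ± 0.091, edgeR adjusted p = 3.3e-07). Slc29a2, an equilibrative nucleoside transporter, rose by 1.07 ± 0.17 on the log2 scale (edgeR adjusted p = 0.000147) from 47.1 to 109 CPM to 103 to 166 CPM, and the ranges overlapped between 103 and 109 CPM.

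**Figure D2:**
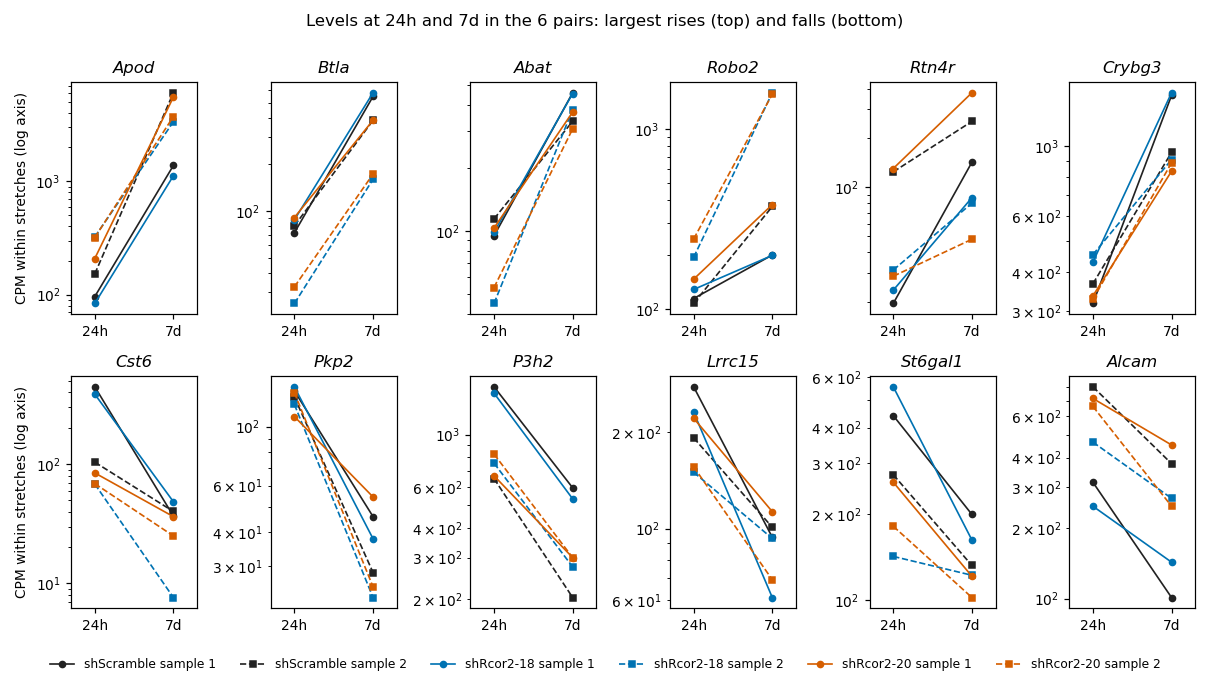
CPM within the stretches (log axis) at 24h and 7d for the 6 genes with the largest rises (upper row) and the 6 with the largest falls (lower row) among the genes that changed the same way in all pairs. Lines join the 2 libraries of a pair, colours mark the construct, circles with solid lines are sample 1 and squares with dashed lines sample 2. All 6 lines slope the same way in each panel, and Robo2 at 7d reaches 1585 and 1556 CPM in sample 2 of shRcor2-18 and shRcor2-20 against 198 to 379 CPM in the others.

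Genes of secreted matrix, of matrix modification and of the stromal cell surface, taken as 1 list, were divided. Of 13 tested, 7 fell (P3h2, Lrrc15, Itgb5, Adamts5, Ltbp3, Efemp2 and Ccdc80) and 4 rose (Col8a1, Fstl1, Adamts1 and Cd248), with a median log2 change of -0.28 against 0.013 over all tested genes. The couples summed gave 4 falls and 3 rises, the fit without the pairing 5 and 2, and the fit over all rows 2 and 1. P3h2 encodes a prolyl 3-hydroxylase that modifies collagen chains in the endoplasmic reticulum. Its level fell from 650, 791 and 1596 CPM at 24h to 203, 300 and 594 CPM at 7d (log2 change -1.44 ± 0.091, edgeR adjusted p = 1.06e-08). The highest 7d library lay below the lowest 24h library, and the pairs ranged narrowly, from -1.68 to -1.15. The couple of shScramble sample 1 and shRcor2-18 sample 1 was the highest at both times, with 1596 and 1500 CPM at 24h and 594 and 533 CPM at 7d. Lrrc15 (ENSMUSG00000052316), a leucine-rich repeat membrane protein of matrix-producing stromal cells, held 150, 206 and 277 CPM at 24h and 61, 93.6 and 113 CPM at 7d. Its ranges did not overlap either (log2 change -1.19 ± 0.16, edgeR adjusted p = 4.7e-05).

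Itgb5, the beta subunit of an integrin that binds vitronectin, fell from 13174 to 16036 CPM to 8167 to 12865 CPM (log2 change -0.49 ± 0.096, edgeR adjusted p = 0.00158). In the fit over all rows its adjusted p was 0.0589. Adamts5, an aggrecan-degrading protease, changed by -0.4 ± 0.092 (edgeR adjusted p = 0.00282). Adamts1, a protease of the same family, changed by 0.45 ± 0.13 (edgeR adjusted p = 0.0235) and was higher at 7d in 5 of 6 pairs. With the couples summed Adamts5 was not called, and in the fit over all rows neither protease was. Col8a1 encodes a short-chain collagen. It moved from 7318, 8982 and 9733 CPM at 24h to 9934, 14264 and 14311 CPM at 7d (log2 change 0.56 ± 0.13, edgeR adjusted p = 0.0069), without overlap. Its pairs differed by couple, with 0.13 and 0.06 in shScramble sample 1 and shRcor2-18 sample 1 and 0.65 to 0.96 in the others, and in the fit over all rows its adjusted p was 0.0515. Of the 8 stromal genes used as cell type markers, 3 rose (Cd248, Fstl1, Col8a1), 3 fell (Ccdc80, Lrrc15, Itgb5) and 2 were not called (Abi3bp and Boc, each at -0.03).

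Modulators of BMP, TGF-beta and Wnt signalling, which direct osteoblast differentiation, showed small changes. Fstl1, a secreted follistatin-like glycoprotein, changed by 0.46 ± 0.077 on the log2 scale (edgeR adjusted p = 0.000249) and was higher at 7d in 6 of 6 pairs. Chrd, which encodes the BMP antagonist chordin, changed by 0.55 ± 0.15 (edgeR adjusted p = 0.0116) and was higher in 5 of 6 pairs. Ltbp3, which tethers latent TGF-beta to the matrix, changed by -0.38 ± 0.078 (edgeR adjusted p = 0.00139) and was lower in 5 of 6 pairs. Without the pairing none of these 3 was called (edgeR adjusted p 0.078, 0.0742 and 0.0886), and with the couples summed the call for Chrd was lost (0.0705). Thpo overlaps Chrd. The Wnt coreceptor Lrp5 and the cytoplasmic transducer Dvl3 rose by 0.23 ± 0.069 and 0.22 ± 0.072 (edgeR adjusted p 0.0157 and 0.0239), and Gsk3b, the kinase that marks beta-catenin for destruction, was at -0.16 ± 0.064 (edgeR adjusted p 0.0652). Gsk3b was called lower under scaling by the total over all rows (0.0331), with chromosome 16 alone (0.0111), with the far ends of the stretches dropped (0.0318) and without shScramble sample 2 (0.0246). Neither rise was called without the pairing (0.0795 and 0.114) or with the couples summed (0.084 and 0.105). Leaving out shRcor2-20 sample 1 also ended both (0.0533 and 0.0768), as did shScramble sample 1 for Lrp5 (0.0658) and shRcor2-18 sample 2 for Dvl3 (0.0868). None of 4 tested Notch pathway genes passed, and the largest difference was 0.46 ± 0.32 for the target Hes1.

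The list of DNA replication, repair and mitosis genes held more falls than rises. Of 20 tested, against 16.6% falls and 17.6% rises over all tested genes, 8 fell (Cip2a, Polq, Cdca5, Mcm4, Nde1, Mis18a, Pola2 and Rnaseh2c) and 1 rose (Prkdc), with a median log2 change of -0.3. The same list held 4 falls without the pairing and 4 in the fit over all rows, 5 with the couples summed, and 6 to 10 with 1 pair left out. Cip2a, an inhibitor of protein phosphatase 2A that accumulates in dividing cells, held 1446, 2386 and 2869 CPM at 24h and 883, 994 and 1823 CPM at 7d (log2 change -0.96 ± 0.16, edgeR adjusted p = 0.00216). Polq, the polymerase of microhomology-mediated end joining, held 364, 637 and 662 CPM at 24h and 189, 280 and 441 CPM at 7d (log2 change -0.84 ± 0.13, edgeR adjusted p = 0.000122). Both ranges overlapped. Each pair was lower at 7d, which was a condition for the largest falls, to which both genes belong. Cdca5 encodes sororin, which holds sister chromatids together. It held 1016, 1721 and 2015 CPM at 24h and 775, 876 and 1207 CPM at 7d (log2 change -0.73 ± 0.12, edgeR adjusted p = 0.000345), again lower in all 6 pairs. Mcm4, a subunit of the replicative helicase, changed by -0.51 ± 0.073 (edgeR adjusted p = 6.41e-05). Pola2, a subunit of the polymerase alpha-primase complex, changed by -0.39 ± 0.12 (edgeR adjusted p = 0.0221). Without the pairing, and likewise in the fit over all rows, Cip2a, Polq and Cdca5 were among the 4 falls. Mcm4 and Pola2 were therefore not both called in either fit. The helicase cofactor Cdc45 and the clamp loader subunit Rfc4 were at -0.31 and -0.33 and did not pass (edgeR adjusted p 0.0644 and 0.0581). Prkdc, the catalytic subunit of DNA-dependent protein kinase, changed by 0.46 ± 0.1 (edgeR adjusted p = 0.00237). In bulk RNA, fewer cells of a type and less RNA per cell cannot be told apart, and this holds for each change given here.

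Over all 20 genes, the median log2 change was -0.02 in shScramble sample 1 and shRcor2-18 sample 1, which form 1 couple, -0.31 in shScramble sample 2, -0.46 in shRcor2-18 sample 2, -0.25 in shRcor2-20 sample 1 and -0.27 in shRcor2-20 sample 2. The 8 genes chosen as called lower had a median log2 change of -0.84 in shRcor2-18 sample 2 and -0.79 in shRcor2-20 sample 2, and of -0.3 to -0.44 in the other 4 pairs. Between 10 and 17 of the 20 tested genes were lower at 7d in each pair. The 24h levels of Cip2a and Polq were lowest in shScramble sample 1 and shRcor2-18 sample 1, with 1777 and 1446 CPM for Cip2a and 364 and 383 CPM for Polq.

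**Figure D3:**
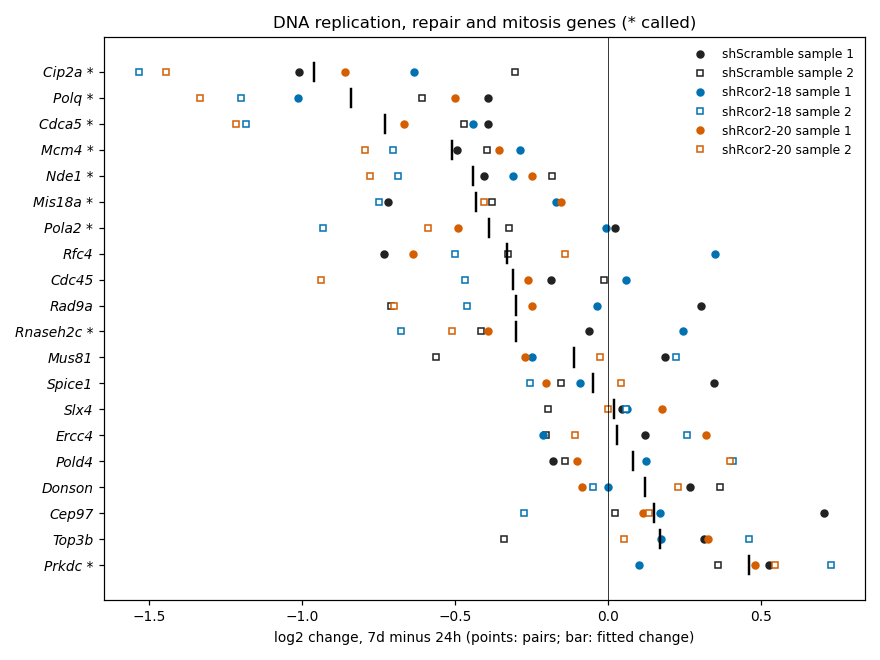
Log2 change from 24h to 7d in each of the 6 pairs (points, filled for sample 1 and open for sample 2, coloured by construct) and the fitted change (black bars) for the 20 tested genes of DNA replication, repair and mitosis, with an asterisk on the genes called. Sample 2 of shRcor2-18 and shRcor2-20 lie farthest to the left for Cip2a and Cdca5, and Prkdc is the lone gene called on the right.

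The promoters of the 3 list genes with the largest falls and of Apod are shown because these genes carry the largest changes of the replication list and of the whole comparison. Each line gives the 250 bases before the RefSeq start site on GRCm38.p6, 5′ to 3′ on the gene's strand. Capitals mark TTCCCGC or TTGGCGC, forms of the E2F site, and TTTGAA, the core of the cell cycle element CHR, on either strand, so that TTCAAA is TTTGAA on the other strand.
Apod, chr16:31314809-31315058, minus strand: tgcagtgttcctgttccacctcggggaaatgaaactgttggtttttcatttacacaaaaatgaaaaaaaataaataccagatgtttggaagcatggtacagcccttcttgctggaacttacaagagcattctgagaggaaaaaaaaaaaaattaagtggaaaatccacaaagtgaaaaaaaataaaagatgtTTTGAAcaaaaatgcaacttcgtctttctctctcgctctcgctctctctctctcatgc
Cdca5, chr19:6084847-6085096, plus strand: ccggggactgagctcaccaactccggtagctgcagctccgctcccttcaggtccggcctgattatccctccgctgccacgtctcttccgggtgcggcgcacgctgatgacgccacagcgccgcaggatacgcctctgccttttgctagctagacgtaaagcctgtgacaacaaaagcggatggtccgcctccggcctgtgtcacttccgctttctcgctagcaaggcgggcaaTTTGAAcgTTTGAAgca
Cip2a, chr16:48993938-48994187, plus strand: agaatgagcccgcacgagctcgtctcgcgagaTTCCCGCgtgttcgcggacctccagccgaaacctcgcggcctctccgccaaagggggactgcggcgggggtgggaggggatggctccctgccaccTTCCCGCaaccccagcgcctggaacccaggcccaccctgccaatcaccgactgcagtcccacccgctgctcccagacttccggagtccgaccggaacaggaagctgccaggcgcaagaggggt
Polq, chr16:37011536-37011785, plus strand: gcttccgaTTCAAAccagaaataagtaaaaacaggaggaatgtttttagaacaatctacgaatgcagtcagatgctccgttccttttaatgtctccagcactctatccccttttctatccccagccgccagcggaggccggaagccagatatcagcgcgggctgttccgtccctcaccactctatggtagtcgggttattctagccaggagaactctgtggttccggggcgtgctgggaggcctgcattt
Within the bases shown, Cdca5 holds TTTGAA in 2 places, 17 and 9 bases before its start, and Cip2a holds TTCCCGC at 218 and 123 bases before it. Polq has TTTGAA at 242 bases and Apod at 58 bases. Windows of 300 bases, from 250 before to 50 after the start, were found for 379 of the 477 tested genes. TTCCCGC lay in 14.3% of the windows of genes that fell, 11.4% of those that rose, 5.53% of those not called and 4.66% of all 27025 RefSeq windows. TTGGCGC lay in 3.57%, 5.71%, 5.14% and 2.54% in the same order, and TTTGAA in 14.3%, 11.4%, 10.3% and 18.1%. Of the 7 falling replication genes with a window, TTCCCGC lay in 2 (Polq and Cip2a), TTGGCGC in 1 (Cdca5) and TTTGAA in 3 (Polq, Cdca5 and Rnaseh2c). The matches of TTCCCGC in Polq and of TTGGCGC in Cdca5 do not lie wholly within the 250 bases shown, so that they are not marked there. AGAACA, a core bound by 1 subunit of the glucocorticoid receptor, lay in 16.1% of the windows of genes that fell, 17.1% of those that rose, 8.3% of those not called and 19% of all windows. Matches are descriptions of letters in these windows. Sites that share bases were counted separately.

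Adhesion and cytoskeletal genes included several of the largest falls. Pkp2 (ENSMUSG00000041957) encodes plakophilin 2, a desmosomal plaque protein. It fell from 109, 131 and 141 CPM at 24h to 22.8, 33.1 and 54.4 CPM at 7d, without overlap (log2 change -1.86 ± 0.22, edgeR adjusted p = 8.37e-06). Alcam, an adhesion molecule of the immunoglobulin family, held 248, 564 and 803 CPM at 24h and 101, 258 and 453 CPM at 7d (log2 change -1.04 ± 0.13, edgeR adjusted p = 1.32e-05). Its groups overlapped widely, and without the pairing its adjusted p was 0.0976. Each pair fell, which was a condition for the largest falls. Ppl, which encodes periplakin, a linker between desmosomes and intermediate filaments, went the other way, from 40.7 to 82.5 CPM to 92.4 to 199 CPM (log2 change 0.94 ± 0.19, edgeR adjusted p = 0.00106). Of 11 tested junction and adhesion genes, 4 fell and 3 rose, with a median of -0.07, and without the pairing 2 fell and 1 rose. Dcbld2, a membrane receptor with a CUB domain, changed by -0.82 ± 0.066 (edgeR adjusted p = 1.35e-07), with 2262 to 2806 CPM at 24h and 1238 to 1764 CPM at 7d. St3gal6 overlaps Dcbld2 and was not called (-0.51 ± 0.21, edgeR adjusted p 0.0787).

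Of 19 tested cytoskeletal and contractile genes, 7 fell and 2 rose, with a median of -0.13, against 16.6% falls, 17.6% rises and a median of 0.013 over all tested genes. Without the pairing, and likewise with the couples summed, 4 fell, and 1 and 2 rose. Arhgap31, which switches off the small GTPases Cdc42 and Rac1, held 3299, 3913 and 4510 CPM at 24h and 1751, 1965 and 2236 CPM at 7d (log2 change -0.96 ± 0.077, edgeR adjusted p = 1.35e-07). Filip1l, a filamin-binding protein, changed by -0.81 ± 0.11 (edgeR adjusted p = 5.02e-05) and overlaps Cmss1. Phldb2, which anchors microtubules near focal adhesions, held 2137 to 3175 CPM at 24h and 1181 to 1885 CPM at 7d (log2 change -0.78 ± 0.069, edgeR adjusted p = 3.49e-07). None of these 3 genes overlapped between the times. Mylk, the myosin light chain kinase, moved upward from 4801, 5317 and 6100 CPM to 7098, 8458 and 9095 CPM (log2 change 0.62 ± 0.066, edgeR adjusted p = 2.62e-06), also without overlap. The muscle actinin Actn3 changed by 0.65 ± 0.12 (edgeR adjusted p = 0.000813), but not without the pairing (adjusted p 0.0641). Of 6 skeletal muscle markers, 5 lay in the stretches and 3 were tested. Actn3 and Srl were called higher, Srl not without the pairing (adjusted p 0.133) or with the couples summed (0.0527), and Fbxo40 was not called, while Popdc2 and Myh15 did not pass the filter. Their summed level was 1002 to 1801 CPM at 24h and 1648 to 1947 CPM at 7d, and its part in the changes was not tested.

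Guidance receptors held 3 rises. Robo2, a receptor for Slit ligands, held 107, 137 and 244 CPM at 24h and 198, 374 and 1585 CPM at 7d (log2 change 1.84 ± 0.37, edgeR adjusted p = 0.0103). It rose in all 6 pairs, which was a condition for the largest rises, and the groups overlapped. The pairs followed the couples, with log2 changes of 3.03 and 2.67 in shRcor2-18 sample 2 and shRcor2-20 sample 2, of 1.78 and 1.36 in shScramble sample 2 and shRcor2-20 sample 1, and of 0.8 and 0.62 in shScramble sample 1 and shRcor2-18 sample 1. Rtn4r, the receptor for the neurite outgrowth inhibitor Nogo, held 19.5, 29.9 and 130 CPM at 24h and 48.1, 114 and 377 CPM at 7d. Its log2 change was 1.53 ± 0.22 (edgeR adjusted p = 6.97e-05), and without the pairing its adjusted p was 0.127. The couple of shScramble sample 2 and shRcor2-20 sample 1 was the highest at both times, with 124 and 130 CPM and then 252 and 377 CPM. With Ephb3 at 0.29 ± 0.084 (edgeR adjusted p = 0.0128), 3 of 4 tested guidance genes rose, against 1 without the pairing and 2 with the couples summed. Leaving out shScramble sample 1 also ended the call for Ephb3 (adjusted p 0.0603). Of 8 neural markers, 1, Syt12, was tested, and it was not called.

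Of 5 tested immune surface genes 3 rose, and without the pairing 1 did. Btla encodes an inhibitory receptor best known from lymphocytes. Its row held 25.3, 76.2 and 90.7 CPM at 24h and 160, 385 and 579 CPM at 7d, without overlap. The log2 change was 2.51 ± 0.15 (edgeR adjusted p = 6e-09), the second largest rise of the comparison, with pairs from 2.07 to 2.9. Cd200, a membrane glycoprotein that engages an inhibitory receptor on myeloid cells, held 630, 1509 and 1762 CPM at 24h and 1134, 2469 and 3715 CPM at 7d. It rose by 0.89 ± 0.097 on the log2 scale (edgeR adjusted p = 8.79e-06) and was not called without the pairing (0.126). Both genes were lowest at both times in shRcor2-18 sample 2 and shRcor2-20 sample 2. Cd80, a costimulatory ligand, changed by 0.26 ± 0.068 (edgeR adjusted p = 0.0066), but not without the pairing (0.0689) or with the couples summed (0.0676). Of 11 leukocyte markers, 4 passed the filter, with a median log2 change of 0.05. Btla and Cd80 were called higher, Hcls1 and Ptprcap were at -0.58 ± 0.33 and -0.17 ± 0.1 and were not called (edgeR adjusted p 0.197 and 0.237), and Cd86 and Trat1 had 0 counts in all 12 libraries. Summed over the list, the level was 1879 to 2085 CPM at 24h and 2224 to 2765 CPM at 7d, and the part of other cells or of neighbouring genes in these rows was not tested.

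Among 18 tested transcription factors, 4 fell and 4 rose, and without the pairing 2 and 2 did. Runx1, a runt-domain factor of haematopoietic and skeletal lineages, held 520, 686 and 760 CPM at 24h and 275, 424 and 506 CPM at 7d (log2 change -0.73 ± 0.099, edgeR adjusted p = 4.55e-05), without overlap. Etv5, an ETS factor induced by growth factor signalling, held 362, 406 and 501 CPM at 24h and 227, 237 and 337 CPM at 7d (log2 change -0.73 ± 0.1, edgeR adjusted p = 4.7e-05), also without overlap. Fosl1, the AP-1 member Fra-1, changed by -0.67 ± 0.14 (edgeR adjusted p = 0.00237) and was not called without the pairing (0.0855). Ccdc85b overlaps Fosl1. Together with Rin1, a Ras effector (-0.46 ± 0.061, edgeR adjusted p = 2.77e-05), Etv5 and Fosl1 made up the 3 falls among 9 tested growth factor and MAP kinase genes, of which none rose and whose median was -0.18. Tfap4, Glis2 and Trp63 changed by 0.59 ± 0.11, 0.44 ± 0.081 and 0.37 ± 0.066 (edgeR adjusted p 0.000744, 0.000513 and 0.000423). Trp63, which marks basal epithelium, held 2073 to 4450 CPM at 24h and 2894 to 4789 CPM at 7d and was not called without the pairing (0.338). Of 9 epithelial markers 3 were tested, Cldn1 and Muc13 were not called, and the list's summed level was 2293 to 4739 CPM at 24h and 3181 to 5025 CPM at 7d. The part of reads from other cells or neighbouring genes was not tested. Npas4, an activity-induced factor, was at 0.69 ± 0.22 (edgeR adjusted p 0.0197) and lost its call without the pairing (0.301), with the couples summed (0.121), in the fit over all rows (0.147), with DESeq2 (0.0543), and without shRcor2-20 sample 1 (0.0663) or shScramble sample 1 (0.101).

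Fam162a, a mitochondrial protein known from the hypoxia response, held 718, 915 and 1160 CPM at 24h and 1213, 2001 and 2858 CPM at 7d (log2 change 1.07 ± 0.23, edgeR adjusted p = 0.0116), without overlap, and overlaps Wdr5b. It ranged from 0.34 in shScramble sample 1 to 1.77 in shRcor2-20 sample 1. A list of respiratory chain, import and other mitochondrial genes held 16 tested members, with a median of -0.01. Fam162a and the chaperones Dnaja3 and Trap1 rose, Slc25a1 and Atp5j fell and 11 were not called. The 5 calls among 16 are near the 34.2% called over all tested genes. Slc25a1, the mitochondrial citrate carrier, changed by -0.43 ± 0.085 (edgeR adjusted p = 0.00106). Atp5j, a subunit of ATP synthase that overlaps Gabpa, changed by -0.31 ± 0.087 (edgeR adjusted p = 0.0108), but not without the pairing (0.138) or with the couples summed (0.0534). None of 7 tested mitochondrial translation genes was called. Of 13 genes of cytosolic translation and the proteasome, the ribosomal protein genes Rpl24 and Rpl35a and the helicase gene Eif4a2 rose by 0.37 ± 0.07, 0.35 ± 0.073 and 0.44 ± 0.061 (edgeR adjusted p 0.000724, 0.00155 and 4.7e-05), and Psmd2 and Eif1ad fell. Without the pairing Rpl35a had an adjusted p of 0.0511 and the list held 1 fall, as it did without shRcor2-18 sample 2 or either shRcor2-20 sample. Rfc4 overlaps Eif4a2.

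Protease control and the secretory pathway held the largest fall. Cst6 encodes cystatin E/M, a secreted inhibitor of lysosomal cysteine proteases. It held 68.2, 94.1 and 446 CPM at 24h and 7.61, 36.5 and 48.4 CPM at 7d (log2 change -2.36 ± 0.32, edgeR adjusted p = 0.000194). No 7d library reached the lowest 24h library. The high 24h levels, 446 and 387 CPM, belonged to the couple of shScramble sample 1 and shRcor2-18 sample 1, and the other 4 libraries held 68.2 to 104 CPM. With Nagpa, Snx15 and Atp6v1a, Cst6 made up 4 falls and no rise among 11 tested lysosome and endosome genes, but the list held 1 fall without the pairing, 1 with the couples summed and 2 without shRcor2-18 sample 1. Nagpa and Snx15 were at -0.29 ± 0.089 and -0.26 ± 0.077 (edgeR adjusted p 0.0187 and 0.0142). Nagpa also lost its call without sample 2 of shRcor2-20 or shScramble (0.0569 and 0.0709), and Snx15 without shRcor2-18 sample 1 (0.0576) or with chromosome 19 scaled alone (0.102).

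St6gal1, which adds sialic acid to N-glycans, held 142, 266 and 556 CPM at 24h and 102, 127 and 199 CPM at 7d (log2 change -1.05 ± 0.16, edgeR adjusted p = 0.000122). Its groups overlapped, and shRcor2-18 sample 2 changed least, by -0.22. Of 11 tested glycosylation genes St6gal1 fell, Pigx rose (0.39 ± 0.11, edgeR adjusted p = 0.00846) and 9 were not called, and with the couples summed Pigx was not called either (0.0705). Of 15 genes of folding and transport in the endoplasmic reticulum, 3 rose and 4 fell, with 1 and 2 without the pairing and 2 and 1 with the couples summed. Cnih2, at -0.9, had the largest change of the list. It was at 0.18 ± 0.43 in shScramble, -1.11 ± 0.45 in shRcor2-18 and -1.7 ± 0.42 in shRcor2-20. Its call was lost in 7 other settings, 4 of them with 1 pair left out, and Yif1a overlaps it. Sec22a, a vesicle trafficking protein, rose from 729 to 848 CPM to 924 to 1181 CPM (log2 change 0.4 ± 0.08, edgeR adjusted p = 0.001), without overlap.

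Of 11 tested interferon response and receptor genes, Socs1, a feedback inhibitor of cytokine receptors, rose (0.43 ± 0.11, edgeR adjusted p = 0.0069) and Rtp4 and Il10rb fell. Socs1 was not called with the couples summed (0.0662). Rtp4, an interferon-induced chaperone of membrane receptors, held 160, 191 and 501 CPM at 24h and 82.1, 141 and 217 CPM at 7d (log2 change -0.84 ± 0.17, edgeR adjusted p = 0.00165). It was not called without the pairing (0.0689) or in the fit over all rows (0.0626), and it overlaps Masp1. Il10rb, at -0.35 ± 0.1 (edgeR adjusted p 0.0144), lost its call without the pairing (0.0633), with the couples summed (0.1) and without shRcor2-18 sample 1 (0.0543). None of 6 NF-kB and interleukin 1 genes was called, but 2 were called lower without shRcor2-18 sample 2. Of these genes Nfkbiz, an IkB family protein at -0.4 ± 0.16 (edgeR adjusted p 0.0644), was also called lower under scaling by the total over all rows (0.0407), with chromosome 16 alone (0.0438) and with the far ends dropped (0.0463). Of 5 iron and heme genes, the transferrin receptor Tfrc was called higher and the heme-sensing repressor Bach1 lower. Without the pairing, with the couples summed and in the fit over all rows neither was called, with adjusted p of 0.281, 0.114 and 0.178 for Tfrc and 0.127, 0.1 and 0.0654 for Bach1. Each of shRcor2-18 sample 1, shRcor2-20 sample 1 and both shScramble samples, left out alone, ended the call for Tfrc (adjusted p 0.0735 to 0.107), and each shRcor2-20 sample that for Bach1 (0.0668 and 0.061). Of 14 chromatin coregulators, 2 rose (Kmt5b and Ubn1) and 3 fell (Hira, Brms1 and Dpf2), with 1 and 0 called without the pairing and likewise with the couples summed, and no fall called when shRcor2-20 sample 2 was left out.

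**Figure D4:**
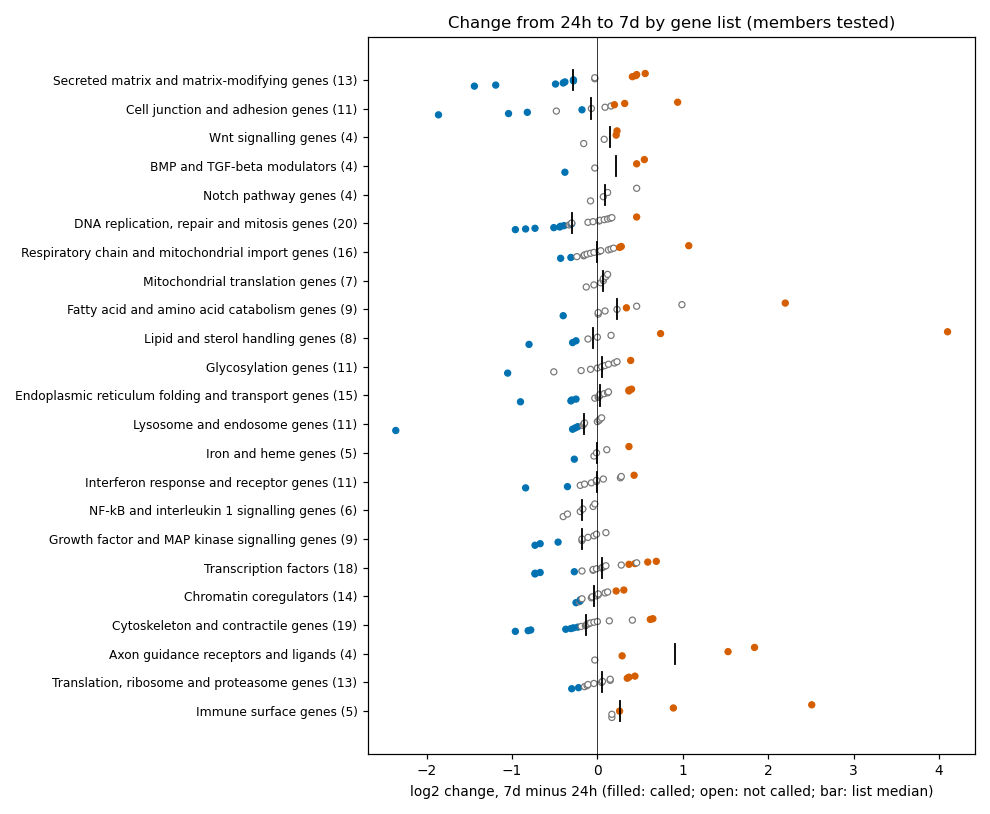
Log2 change from 24h to 7d (horizontal axis) for the tested members of 23 gene lists (rows, with the number tested), where filled points were called higher (orange) or lower (blue), open points were not called and black bars are list medians. The replication list has 8 filled points to the left and 1 to the right. The Wnt, guidance and immune surface lists have filled points on the right only, and the lysosome and growth factor lists on the left only.

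Crybg3 (ENSMUSG00000022723), a member of the beta/gamma-crystallin domain family, and Tmem44, a membrane protein, belonged to none of the lists. Crybg3 held 318, 352 and 454 CPM at 24h and 834, 932 and 1478 CPM at 7d (log2 change 1.52 ± 0.13, edgeR adjusted p = 1.09e-06). Tmem44 held 204, 251 and 257 CPM at 24h and 446, 569 and 660 CPM at 7d (log2 change 1.21 ± 0.11, edgeR adjusted p = 7.84e-07). In neither did the times overlap, and Riox2 overlaps Crybg3.

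The changes were then estimated in each construct as labelled, with 2 pairs a construct and a shared estimate of the spread. At both times the library nearest to each one carried another construct, as given above, and whether the construct labels hold was not tested. In shScramble 41 genes were called (8.6%), in shRcor2-18 40 (8.39%) and in shRcor2-20 55 (11.5%), and 22 were called in all 3. Without the pairing the counts were 1, 4 and 4. Apod changed by 4.65 ± 0.47 in shScramble, 3.52 ± 0.45 in shRcor2-18 and 4.12 ± 0.43 in shRcor2-20 on the log2 scale. P3h2 changed by -1.54 ± 0.18, -1.48 ± 0.18 and -1.31 ± 0.18, and Pkp2 by -1.84 ± 0.41, -2.12 ± 0.42 and -1.64 ± 0.4, in the same order. The estimates of Cst6 spread more, with -2.61 ± 0.43, -3.03 ± 0.47 and -1.32 ± 0.47. Cip2a changed by -0.65 ± 0.25 in shScramble, -1.09 ± 0.26 in shRcor2-18 and -1.15 ± 0.25 in shRcor2-20, and Polq by -0.5 ± 0.22, -1.12 ± 0.23 and -0.91 ± 0.22.

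The difference between constructs was tested as well. The mean change with both hairpins against Rcor2 minus the change with shScramble was called for 0 of 477 genes by edgeR and by DESeq2. In edgeR 6 genes had an unadjusted p under 0.05, fewer than chance alone would mark. The 2 samples of each construct lay in different couples, and the absence of calls does not show equal changes. Differences had a median size of 0.12 and a median SE of 0.21 on the log2 scale, and 90% of the genes differed by at most 0.38. For Apod the difference was -0.83 ± 0.54. The change with shRcor2-18 minus that with shRcor2-20 was called for 1 gene (0.21%), Serpind1, which encodes heparin cofactor II, a thrombin inhibitor. This gene was singled out by its value. It was at 0 CPM in 5 of the 12 libraries, and the fit without the pairing and DESeq2 called 0 genes, while 6 had an unadjusted p under 0.05 in edgeR. The plot of the 3 constructs shows the estimates side by side.

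**Figure D5:**
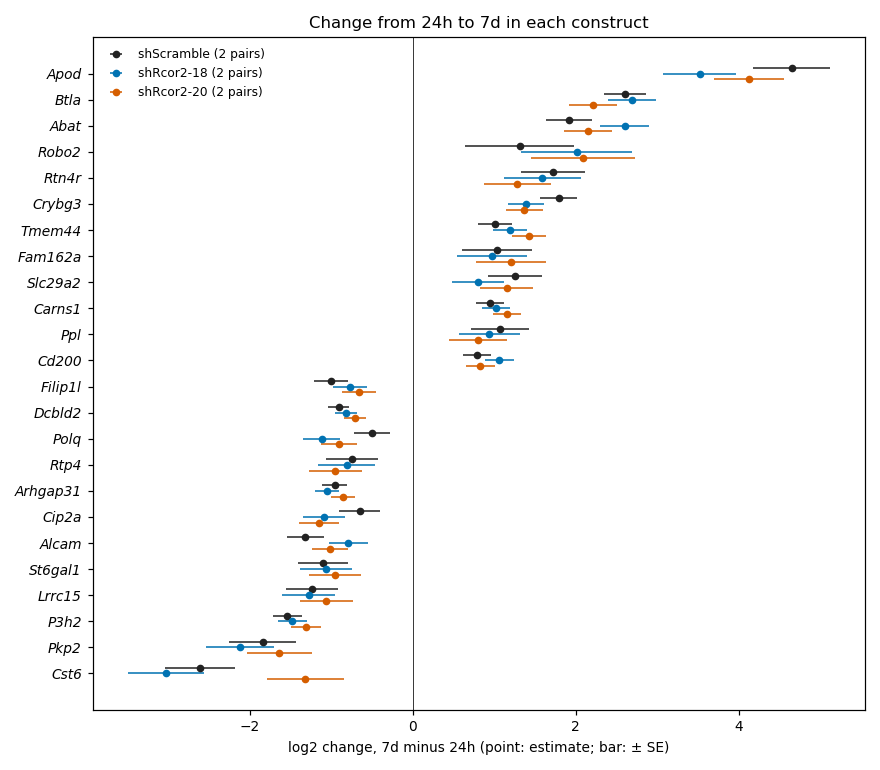
Log2 change from 24h to 7d (horizontal axis) in shScramble (black), shRcor2-18 (blue) and shRcor2-20 (orange) for the 12 largest rises and 12 largest falls, as the estimate from 2 pairs with its SE. The genes were chosen for the same sign in all 6 pairs, which fixes the side of 0, and the plot shows how the sizes differ, as for Cst6 between -3.03 and -1.32.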

How the data were processed

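RNA was measured in 12 libraries, of which the group, time and sample number came from the titles. The authors deposited 1 table of raw counts per gene with 40620 rows. The submitters' processing notes name FastQC, TopHat2 2.0.9, DESeq, DESeq2 and the build mm9, and the labels give reads of 100 bp. No source used here gives the counting program, its use of strand or its gene models.

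The members and lists were chosen with earlier results of these data known, and the limit to the 2 stretches was taken over from that work. Symbols follow GENCODE vM21 and differed from the table's for 28 of 744 genes, whose rows were matched by identifier. The named genes were the 12 largest rises and 12 largest falls among the genes called, with a mean of at least 20 CPM, the same sign in all 6 pairs and no placeholder name, the 5 genes given as markers, and up to 3 tested members of each list with the largest change. Members named beside these were singled out after their values were seen.

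Counts were fitted with edgeR 4.0.16 in R 4.3.3 (filterByExpr over 6 groups, TMM and library sizes within the stretches, robust quasi-likelihood test) with the pair as a block and 5 residual degrees of freedom. The SE was taken as the size of the log2 change over the root of the F statistic. Changes per pair used a pseudocount of 1 CPM. The labels do not state that sample numbers pair the samples. The values did so only in part. Deviations from the mean of each time correlated by 0.16 to 0.57 within the 6 pairs, against -0.46 to 0.41 in other pairings. Of 6 24h libraries, 4 were closest to their own partner. That of shRcor2-18 sample 1 was closer to shScramble sample 1 at 7d (0.38 against 0.16). That of shRcor2-20 sample 2 was closer to shRcor2-18 sample 2 (0.41 against 0.27). Both of these lie within a couple, so that the values do not settle the pairing. Alternatives were DESeq2 1.42.0, limma-voom 3.58.1, other scalings and filters, each chromosome alone, all rows tested, no pairing, the couples summed, and each pair left out. Besides the 4 promoter motifs in the text, 6 others were searched on both strands. Shares follow for windows of genes that fell, of genes that rose, of genes not called and for all windows, in this order. CCAAT lay in 46.4%, 32.9%, 43.5% and 37.9%. TGANTCA, the AP-1 site, lay in 3.57%, 7.14%, 4.35% and 7.93%. The GC box GGGCGG lay in 69.6%, 67.1%, 61.3% and 35.9%. TATAAA lay in 7.14%, 7.14%, 6.72% and 14.2%, the hypoxia core ACGTG in 26.8%, 35.7%, 23.3% and 19.7%. The sterol element TCACNCCAC lay in 3.57%, 2.86%, 0.791% and 1.22%.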

Additional observations from a re-analysis of the deposited data

Results flagged for a closer look

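In Phldb2, 1 pair stood apart from the other 5: the log2 change of shScramble sample 2 was -0.49, against -0.88 to -0.75 in the others. Such gaps were looked for in 84 named genes, and chance marks about 1 in 20.

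The change of Serpind1 was called different between the 2 hairpins against Rcor2 in the main fit. The fitted log2 difference was -17.03 ± 1.65 (edgeR adjusted p = 2.53e-05, shRcor2-18 minus shRcor2-20). Without the pairing, and with DESeq2, it was not called. At 24h its level was 11.1 and 226 CPM in the shScramble samples, 143 and 0 in the shRcor2-18 samples and 0 in both shRcor2-20 samples. At 7d it was 4.59 and 344 CPM, 0 in both shRcor2-18 samples, and 4.03 and 221 CPM. The difference rested mainly on 1 pair of each hairpin. These were shRcor2-18 sample 1, from 143 to 0 CPM, and shRcor2-20 sample 2, from 0 to 221 CPM. The fitted difference depends on the prior count and is no bound, the samples of shScramble alone spanned 4.59 to 344 CPM at 7d, and Pi4ka overlaps the gene.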

How the results depend on the processing

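The count of 163 genes called fell to 83 without the pairing and to 87 with the couples summed (2 residual degrees of freedom). It fell to 92 when all 11724 rows that passed the filter were tested together. Chromosome 19 scaled alone, which tests 114 genes, gave 41, against 51 on that chromosome in the main fit. Chromosome 16 scaled alone gave 62 rises and 61 falls, against 69 and 43 in the main fit. The count was 139 to 165 with 1 pair left out and 123 to 169 under the other settings run. Without the pairing the counts per construct were 1 in shScramble and 4 in each of shRcor2-18 and shRcor2-20, and the call between the hairpins went to 0 without the pairing and 0 with DESeq2. The cause of these differences was not tested.

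Of the 24 largest rises and falls, 20 were called under every setting that tested them. Rtn4r, Cd200 and Alcam lost the call without the pairing, and Rtp4 did so there and with all rows tested. Of 63 named genes called, 32 lost the call under at least 1 setting, and none reversed. Tfrc lost it most often, and Cnih2 was not called in 7 settings. With all rows tested, Col8a1, Itgb5, Lrp5, Dvl3, Chrd, Ltbp3, Atp5j, Nagpa, Snx15, Socs1, Il10rb, Fosl1, Npas4, Brms1 and Ephb3 also lost it. Gains without 1 pair included a rise among replication genes (shScramble sample 2), a rise among interferon genes (shScramble sample 1 or shRcor2-18 sample 1), a fall among glycosylation genes (shScramble sample 1 or shRcor2-20 sample 2) and a fall among Wnt genes (shScramble sample 2), and the replication list held 9 falls without shScramble sample 1 and 10 without shRcor2-18 sample 1. The stretches held 416472 to 729687 counts a library, and the median SE of a log2 change was 0.089.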

Other observations

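Zdhhc24, Tmem39a, Scarf2 and Masp1, which stood in no list, were called in each of the 3 constructs and were singled out after their values were seen. Calls in a construct rest on 2 pairs, a shared estimate of the spread and the pairing, and without the pairing far fewer genes were called per construct. The nearest libraries crossed constructs, so that calls in all 3 cannot be taken as independent repeats. Zdhhc24, a palmitoyltransferase, held 492 to 834 CPM at 24h and 863 to 1350 CPM at 7d (log2 change 0.76 ± 0.089, edgeR adjusted p = 8.56e-06). Tmem39a, a membrane protein, moved from 971 to 1351 CPM to 1406 to 2020 CPM (0.71 ± 0.077, edgeR adjusted p = 3.75e-06). Scarf2, a scavenger receptor family member, moved from 2679 to 3874 CPM to 4341 to 5131 CPM (0.58 ± 0.069, edgeR adjusted p = 8.79e-06). Masp1, a serine protease of the lectin pathway of complement that overlaps Rtp4, moved from 2798 to 4339 CPM to 1650 to 2442 CPM (-0.76 ± 0.06, edgeR adjusted p = 1.35e-07). In none of the 4 did the libraries of the 2 times overlap.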
